A study of Sordaria macrospora with 14 samples.

Results

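Mycelium of the delta-asm2 deletion strain of Sordaria macrospora was compared with mycelium of the wild type. The comparison took 4 of the 14 RNA-seq libraries of the study, 2 from delta-asm2 mycelium and 2 from wild-type mycelium, and all 9869 gene models of the deposited count table. The other libraries, 2 in each group, came from perithecia of delta-asm2, of the deletion strain delta-SMAC_03952 and of the wild type, and from mycelium of delta-SMAC_03952 and of delta-spt3. All strains were grown on corn meal medium for 6 days at 25 °C, in liquid medium for sexual mycelium and on solid medium for perithecia, which were fixed in ethanol for 10 min. Each deletion strain carries the deletion that its name gives. The sources used here do not say how the deletions were made or whether a strain stands for 1 transformant. The replicates are independent biological replicates, per the submitters.

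Sordaria macrospora is an ascomycete in which a single strain can complete the sexual cycle without a mating partner. Its vegetative hyphae form ascogonia, which are enveloped by other hyphae and grow into protoperithecia and then perithecia, the flask-shaped fruiting bodies that hold the asci and ascospores. The asm2 gene is known here from the strain label alone, and SPT3 is known from yeast as a subunit of the SAGA transcription coactivator complex. No table used here pairs the gene identifiers with products, so genes are named by identifier and no role is given to them.

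Library totals were 16566840 and 9219211 counts in delta-asm2 mycelium and 24029990 and 19792141 counts in wild-type mycelium, within a range of 6383079 to 24029990 over all 14 libraries. At least 1 CPM (counts-per-million on scaled library totals) was reached by 8949 and 8961 genes in the delta-asm2 libraries and by 9122 and 9069 genes in the wild-type libraries. Replicates differed by more than sampling noise in both groups, so each library counts as 1 sample. With no named marker genes, the tissue labels were checked on genes that differed between perithecia and mycelium of delta-SMAC_03952. The libraries of that strain are in neither group compared, but they entered the model fitted to all 14 libraries, which set each gene's spread. In each library the median log2(CPM + 1) of the mycelium-high genes of delta-SMAC_03952 was subtracted from that of its perithecium-high genes. This difference was -1.60 and -1.04 in delta-asm2 mycelium and -0.40 and -0.93 in wild-type mycelium, against 0.31 and 0.54 in delta-asm2 perithecia and 0.01 and 0.42 in wild-type perithecia. Every mycelium library thus lay below every perithecium library, and both delta-asm2 mycelium libraries lay below both wild-type ones. The gap between the strains, from -1.04 to -0.93, was smaller than that between the wild-type mycelium replicates. The part of a differing tissue makeup in the results below was not tested, and in these bulk samples fewer cells of a type and less RNA per cell cannot be told apart.

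Between delta-asm2 and wild-type mycelium, 576 of 9499 tested genes changed, 6.06% of those tested (edgeR quasi-likelihood test, Benjamini-Hochberg adjusted p under 0.05). Of these, 328 were higher in delta-asm2 (3.45%) and 248 were lower (2.61%). The median log2 fold change was 1.59 for the higher genes and -1.68 for the lower genes, and -0.02 over all genes tested. A change of at least 4-fold was seen in 97 higher and 89 lower genes, and one of at least 16-fold in 13 higher and 19 lower genes. Replicates of the groups did not overlap for any of the 576 genes, a property shared by 55.2% of all genes tested.

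**Figure D1:**
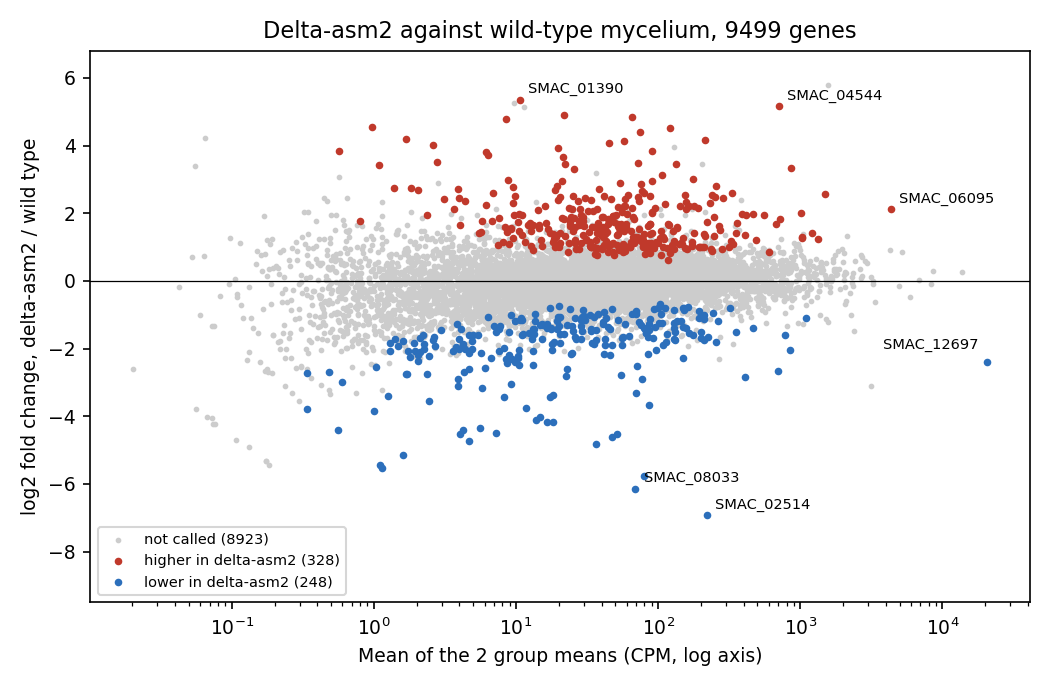
Each point is 1 of 9499 tested genes, with the mean of both group means in CPM on a logarithmic x axis and the log2 fold change of delta-asm2 over wild-type mycelium on the y axis. Red points are the 328 genes higher in delta-asm2, blue points the 248 lower genes, grey points the rest, and SMAC_02514 lies at the bottom with a log2 fold change of -6.91.

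The changed genes were found at most levels of expression. Among genes with a mean of 10 to 100 CPM over all libraries, 3.95% were higher and 2.44% lower in delta-asm2 mycelium. Among those at 1 to 10 CPM the shares were 2.32% higher and 3.48% lower, and at 1000 CPM or more they were 2.73% higher and 0.909% lower. Transcripts of the higher genes had a median length of 1578 bases and those of the lower genes 1675 bases, against 1853 bases over all genes tested. Genes that crossed from nearly silent to clearly expressed, or back, were few. Of 7379 genes with a mean of at least 10 CPM in wild-type mycelium, 2 had a mean under 1 CPM in delta-asm2 mycelium, namely SMAC_03714 and SMAC_08646. Of 395 genes with a mean under 1 CPM in wild-type mycelium, 6 reached a mean of 10 CPM in delta-asm2 mycelium. These were SMAC_01189, SMAC_01390, SMAC_08989, SMAC_09039, SMAC_09685 and SMAC_09686, of which the last pair did not pass the test.

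The deepest loss of transcript was that of SMAC_02514. It had 6.64 and 0 CPM in delta-asm2 mycelium, which are 103 counts in the first library and 0 in the other, against 427 and 444 CPM in wild-type mycelium. The log2 fold change was -6.91 ± 0.94 (SE), with an edgeR adjusted p of 0.00135. Delta-asm2 perithecia had 0.730 and 0.494 CPM of it, against 386 and 433 CPM in wild-type perithecia, a log2 fold change of -9.39 with an edgeR adjusted p of 1.87e-04. It was the single gene that lay more than 2-fold below all 10 other libraries in all 4 delta-asm2 libraries, or 0.0105% of those tested. The criterion also required at least 10 CPM in each of the 10 other libraries, so a gene below that level in any of them could not qualify. The same criterion applied to delta-SMAC_03952 found 1 gene, SMAC_03952 itself. Its counts were lowered there but not absent, at 21.3 and 25.1 CPM in mycelium and 45.7 and 35.2 CPM in perithecia of that strain. The sources used here do not say whether SMAC_02514 is the gene deleted in delta-asm2. The 5 gene models with the identifiers around it, SMAC_02511 to SMAC_02513, SMAC_02515 and SMAC_02516, did not pass the test in mycelium, with log2 fold changes between -0.91 and 1.07. SMAC_03952, the gene deleted in the other strain, had 231 and 270 CPM in delta-asm2 mycelium and 240 and 237 CPM in wild-type mycelium (log2 fold change 0.07, edgeR adjusted p = 0.883).

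The 10 most lowered and the 10 most raised genes described here were taken among called genes with a mean of at least 10 CPM in the higher group. Under that limit, 7 called genes were lowered by as much, with log2 fold changes between -5.53 and -4.39 and at most 9.02 CPM in wild-type mycelium. They were SMAC_09520, SMAC_00593, SMAC_03728, SMAC_06842, SMAC_05676, SMAC_00594 and SMAC_07671, and all but SMAC_03728 were also called lower in delta-asm2 perithecia. Likewise SMAC_08211 and SMAC_08685, at 3.18 CPM or less in delta-asm2 mycelium, were raised by log2 fold changes of 4.56 and 4.19. SMAC_08033 had 1.55 and 2.42 CPM in delta-asm2 mycelium, against 167 and 105 CPM in wild-type mycelium. Its log2 fold change was -6.13 ± 0.74 (SE), with an edgeR adjusted p of 7.12e-04. Both wild-type libraries thus lay far above both mutant libraries. SMAC_09240 had 2.84 and 2.86 CPM in delta-asm2 mycelium, against 199 and 115 CPM in wild-type mycelium (log2 fold change -5.78, edgeR adjusted p = 6.06e-04). SMAC_03185 had 1.29 and 3.95 CPM in delta-asm2 mycelium, against 73.3 and 67.9 CPM in wild-type mycelium (log2 fold change -4.83). SMAC_03547 had 0.967 and 6.92 CPM in delta-asm2 mycelium, against 77.9 and 103 CPM in wild-type mycelium (log2 fold change -4.61). In the last gene the delta-asm2 replicates lay several-fold apart while still far below both wild-type libraries.

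SMAC_07759 had a gap of the same kind, with 0.580 and 8.68 CPM in delta-asm2 mycelium, against 104 and 93.9 CPM in wild-type mycelium (log2 fold change -4.51). SMAC_08646 had 0.645 and 0.549 CPM in delta-asm2 mycelium, against 19.1 and 8.55 CPM in wild-type mycelium (log2 fold change -4.50). SMAC_03714 had 0.580 and 0.439 CPM in delta-asm2 mycelium, against 12.9 and 8.50 CPM in wild-type mycelium (log2 fold change -4.33). Both of these genes were at the edge of detection in the mutant. SMAC_09351 had 1.74 and 2.09 CPM in delta-asm2 mycelium, against 38.3 and 30.3 CPM in wild-type mycelium (log2 fold change -4.18). Its adjusted p was 0.00509 with all libraries and 0.0884 without delta-asm2 mycelium replicate 1. SMAC_05994 had 1.55 and 1.98 CPM in delta-asm2 mycelium, against 38.4 and 23.9 CPM in wild-type mycelium (log2 fold change -4.16). The largest edgeR adjusted p among the 10 genes was 0.00548, and all but SMAC_09351 passed the test under each of the 13 alternatives tried.

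**Figure D2:**
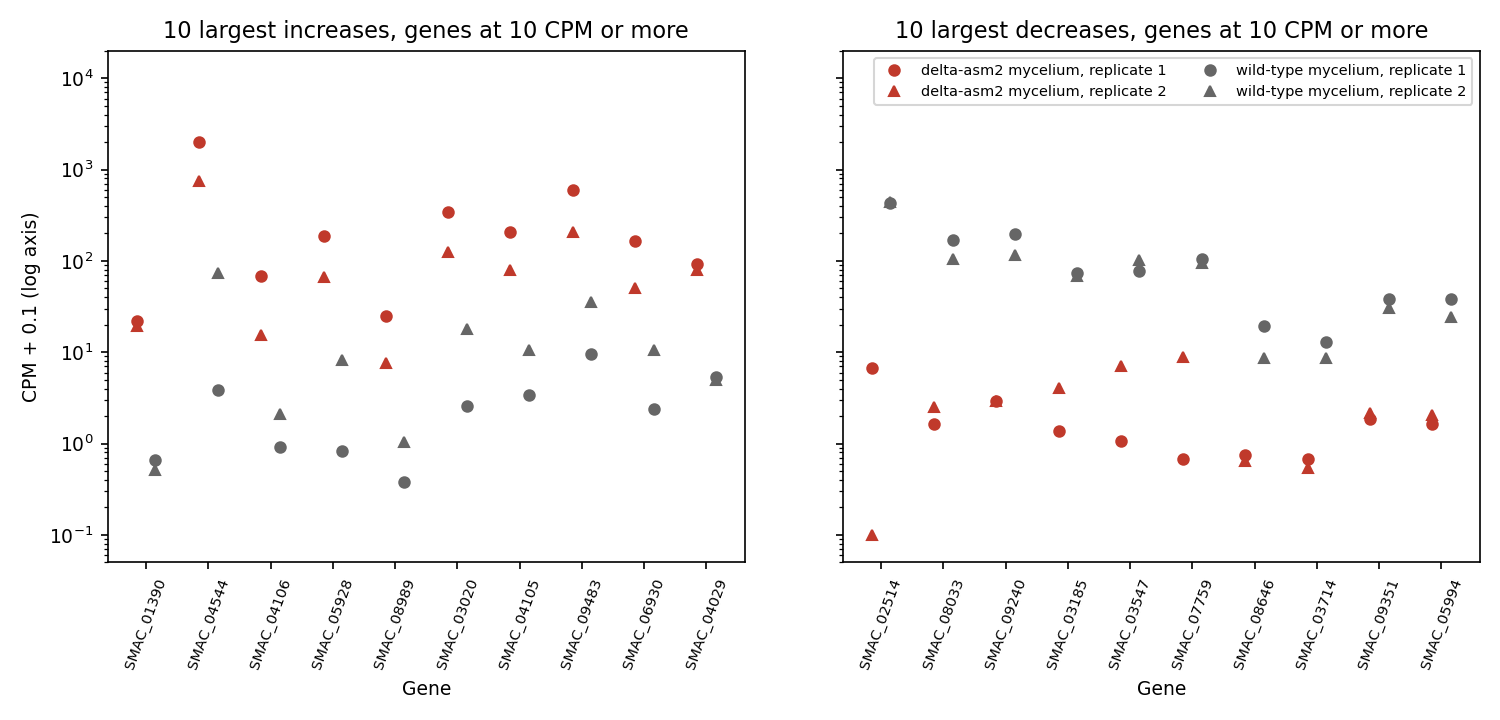
Levels per library, as CPM + 0.1 on a logarithmic axis, of the 10 genes with the largest increases (left) and the 10 with the largest decreases (right) among called genes with a mean of at least 10 CPM in the higher group. Red symbols are delta-asm2 mycelium and grey symbols wild-type mycelium, with circles for replicate 1 and triangles for replicate 2. Of the 10 lowered genes, replicates lie more than 2-fold apart in delta-asm2 mycelium for 4 and in wild-type mycelium for 1. In 8 of the 10 raised genes they lie more than 2-fold apart in both groups.

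The 9 genes described beside SMAC_02514 were perithecium-high in the wild type and low in the other deletion strains. Their levels per library ranged over 0.439 to 8.68 CPM in delta-asm2 mycelium and 8.50 to 199 CPM in wild-type mycelium. In perithecia the ranges were 1.70 to 280 CPM in delta-asm2 and 72.1 to 1624 CPM in the wild type. For each of the 9 genes the mean in perithecia was above that in mycelium, by 3.87-fold to 51.2-fold in delta-asm2 and by 5.29-fold to 17.8-fold in the wild type. All 9 were also lower in delta-asm2 perithecia than in wild-type perithecia, as was SMAC_02514, with edgeR adjusted p of at most 0.0224. In delta-SMAC_03952 the same genes had 0.258 to 6.56 CPM in mycelium and 0.434 to 5.17 CPM in perithecia, and in delta-spt3 mycelium they had 0 to 9.95 CPM. A direct comparison of delta-asm2 with delta-SMAC_03952 mycelium called none of the 9 (edgeR adjusted p from 0.149 to 0.736), which does not show that they are at equal levels. It did call SMAC_02514, at 332 and 138 CPM in delta-SMAC_03952 mycelium, with a log2 fold change of -6.02 and an edgeR adjusted p of 0.00425. SMAC_07759 had 280 and 194 CPM in delta-asm2 perithecia, against 1624 and 1593 CPM in wild-type perithecia, so it was well expressed in that mutant tissue and still lower.

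Of the raised genes, SMAC_01390 had the largest change. It had 21.9 and 19.4 CPM in delta-asm2 mycelium, against 0.566 and 0.417 CPM in wild-type mycelium, a log2 fold change of 5.36 ± 0.42 (SE) with an edgeR adjusted p of 7.18e-05. The replicates were close, and no library outside delta-asm2 mycelium exceeded 1.10 CPM. In perithecia it had 1.10 and 0.824 CPM in delta-asm2 and 0.305 and 0.374 CPM in the wild type (log2 fold change 1.45, edgeR adjusted p = 0.0800). The difference between the changes in the 2 tissues was itself called (log2 difference 3.91, edgeR adjusted p = 0.0173). SMAC_04029 was raised in both tissues. It had 92.0 and 79.2 CPM in delta-asm2 mycelium, against 5.22 and 4.90 CPM in wild-type mycelium (log2 fold change 4.08, SE 0.33, with an edgeR adjusted p of 7.18e-05). In perithecia its log2 fold change was 3.20 (edgeR adjusted p = 7.59e-05). Its highest level of all was in delta-spt3 mycelium, with 871 and 508 CPM.

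The remaining 8 of the 10 most raised genes varied widely between replicates of the same group. SMAC_04544 had 1993 and 749 CPM in delta-asm2 mycelium, against 3.80 and 73.5 CPM in wild-type mycelium (log2 fold change 5.15 ± 1.28, edgeR adjusted p = 0.0356). Without delta-asm2 mycelium replicate 1 the adjusted p was 0.185. Both groups thus held a large gap between their own replicates, though the lower mutant library stayed above the higher wild-type library. SMAC_05928 had 186 and 66.0 CPM in delta-asm2 mycelium, against 0.728 and 8.19 CPM in wild-type mycelium (log2 fold change 4.84, edgeR adjusted p = 0.00424). SMAC_04106 had 68.4 and 15.2 CPM in delta-asm2 mycelium, against 0.809 and 2.03 CPM in wild-type mycelium (log2 fold change 4.90, edgeR adjusted p = 0.00380). SMAC_08989, SMAC_03020, SMAC_04105, SMAC_09483 and SMAC_06930 completed the list, with log2 fold changes between 4.12 and 4.77.

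In delta-asm2 mycelium, replicate 1 was the higher library for 10 of the 10 most raised genes, and in wild-type mycelium replicate 2 was higher for 8 of them. The same lean ran through the whole set. Replicate 1 of delta-asm2 mycelium exceeded replicate 2 in 81.7% of the 328 higher genes and 36.3% of the 248 lower genes, against 50.0% of all genes tested. Replicate 2 of wild-type mycelium exceeded replicate 1 in 73.2% of the higher genes and 25.8% of the lower genes, against 50.2% of all genes. The part of the replicates in the size of these changes was not tested.

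The 8 variable genes were compared over the other groups. Their levels per library ranged over 7.58 to 1993 CPM in delta-asm2 mycelium and 0.283 to 73.5 CPM in wild-type mycelium. Ranges in perithecia were 0.365 to 22.6 CPM in delta-asm2 and 0.534 to 19.6 CPM in the wild type, and none of the 8 was called there. Of the 10 most raised genes, 7 were higher than in delta-SMAC_03952 mycelium, against 2.60% of all genes tested. That test reuses the delta-asm2 mycelium libraries that chose these genes, which favours such calls. In delta-SMAC_03952 mycelium the 8 variable genes had 0.696 to 95.6 CPM. In delta-spt3 mycelium they had 0.149 to 96.2 CPM. The top of that range was SMAC_06930, with 167 and 51.0 CPM in delta-asm2 mycelium, against 96.2 and 53.6 CPM in delta-spt3 mycelium, and the direct comparison did not call it (log2 fold change 0.54, edgeR adjusted p = 0.545). Across the 13 alternatives, 3 of the 10 passed in each, namely SMAC_01390, SMAC_05928 and SMAC_04029.

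Among the called genes with the highest CPM, ranked without regard to transcript length, SMAC_06095 led the higher genes. It had 8133 and 5926 CPM in delta-asm2 mycelium, against 1624 and 1581 CPM in wild-type mycelium (log2 fold change 2.13, edgeR adjusted p = 0.0107). It was also higher in delta-asm2 perithecia (log2 fold change 3.04, edgeR adjusted p = 7.09e-04). Delta-SMAC_03952 mycelium had 7067 and 7900 CPM of it, a level in the range of delta-asm2 mycelium, while delta-spt3 mycelium had 47.5 and 39.2 CPM. SMAC_02862 had 1834 and 1647 CPM in delta-asm2 mycelium, against 724 and 594 CPM in wild-type mycelium (log2 fold change 1.40, edgeR adjusted p = 0.0215), and was higher in perithecia as well (log2 fold change 2.37). SMAC_07261 changed by a log2 fold change of 1.23 in mycelium and 1.12 in perithecia. SMAC_03626 and SMAC_02657 were called in mycelium with log2 fold changes of 2.58 and 2.00, and not in perithecia. None of these 5 passed under every alternative, and without wild-type mycelium replicate 1 the adjusted p of SMAC_06095 was 0.124.

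SMAC_12697 was the transcript with the most counts in wild-type mycelium, where it took 4.99% and 2.01% of the counts. It had 6836 and 6418 CPM in delta-asm2 mycelium, against 48512 and 20698 CPM in wild-type mycelium. The log2 fold change was -2.38, with an edgeR adjusted p of 0.0100. It was below the wild type in the other deletion strains too, with 4653 and 7916 CPM in delta-SMAC_03952 mycelium and 38.3 and 48.7 CPM in delta-spt3 mycelium. The wild-type replicates lay more than 2-fold apart, and without replicate 1 of the wild type the adjusted p was 0.129. SMAC_00158 had 269 and 387 CPM in delta-asm2 mycelium, against 1693 and 1018 CPM in wild-type mycelium (log2 fold change -2.05, edgeR adjusted p = 0.00243). It passed under each of the 13 alternatives. In perithecia it had 22.3 and 24.2 CPM in delta-asm2 and 17.3 and 23.5 CPM in the wild type, and the difference between the tissues was called (log2 difference -2.23, edgeR adjusted p = 0.0257). Its level was 113 and 152 CPM in delta-SMAC_03952 mycelium and 5.85 and 6.58 CPM in delta-spt3 mycelium. SMAC_08513, SMAC_02744 and SMAC_00234 were lower in delta-asm2 mycelium by log2 fold changes of -1.09, -2.68 and -1.58. None of the 5 lower genes of this kind was called lower in delta-asm2 perithecia.

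A small group of genes was higher in every delta-asm2 library, whatever the tissue. By a criterion chosen after values were seen, a gene had to exceed all 10 other libraries by more than 2-fold in each of the 4 delta-asm2 libraries and reach a mean of 10 CPM there. It was met by 11 genes, 0.116% of those tested, and by no gene when delta-SMAC_03952 was put in the place of delta-asm2. The 11 were SMAC_00337, SMAC_01188, SMAC_03621, SMAC_03627, SMAC_03738, SMAC_04309, SMAC_05843, SMAC_06022, SMAC_07183, SMAC_09039 and SMAC_09516. As the criterion used these libraries, their values are a description. SMAC_00337 had 38.1 and 36.5 CPM in delta-asm2 mycelium, against 4.77 and 4.85 CPM in wild-type mycelium, and 43.1 and 51.9 CPM in delta-asm2 perithecia, against 4.35 and 3.68 CPM in wild-type perithecia. SMAC_03738 had 55.1 and 37.8 CPM in delta-asm2 mycelium, against 4.85 and 4.59 CPM in wild-type mycelium. SMAC_09039 had 11.2 and 11.9 CPM in delta-asm2 mycelium, against 0.647 and 0.991 CPM in wild-type mycelium. The mycelium replicates of all 11 lay within 2-fold of each other, unlike those of the 8 variable genes above. This is the usual state. Of all genes tested, 10.2% had replicates more than 2-fold apart in delta-asm2 mycelium and 4.23% in wild-type mycelium. The criterion, set on the lowest delta-asm2 library, also favours close replicates.

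SMAC_06022 had 131 and 157 CPM in delta-asm2 mycelium, against 36.8 and 34.5 CPM in wild-type mycelium, and 170 and 172 CPM in delta-asm2 perithecia, against 13.4 and 7.92 CPM in wild-type perithecia. It was lower still in delta-spt3 mycelium, with 2.58 and 1.49 CPM. Over the 11 genes the log2 fold change ranged from 1.75 to 3.82 in mycelium and from 1.91 to 4.0 in perithecia, and 7 passed under every alternative in mycelium. SMAC_01189, a called neighbour of SMAC_01188, missed the criterion. It had 16.3 and 7.25 CPM in delta-asm2 mycelium, against 0.890 and 0.886 CPM in wild-type mycelium (log2 fold change 3.73, edgeR adjusted p = 9.19e-04), and 10.4 and 8.30 CPM in delta-spt3 mycelium. SMAC_01188 was not raised in that strain, with 4.48 and 10.1 CPM.

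**Figure D3:**
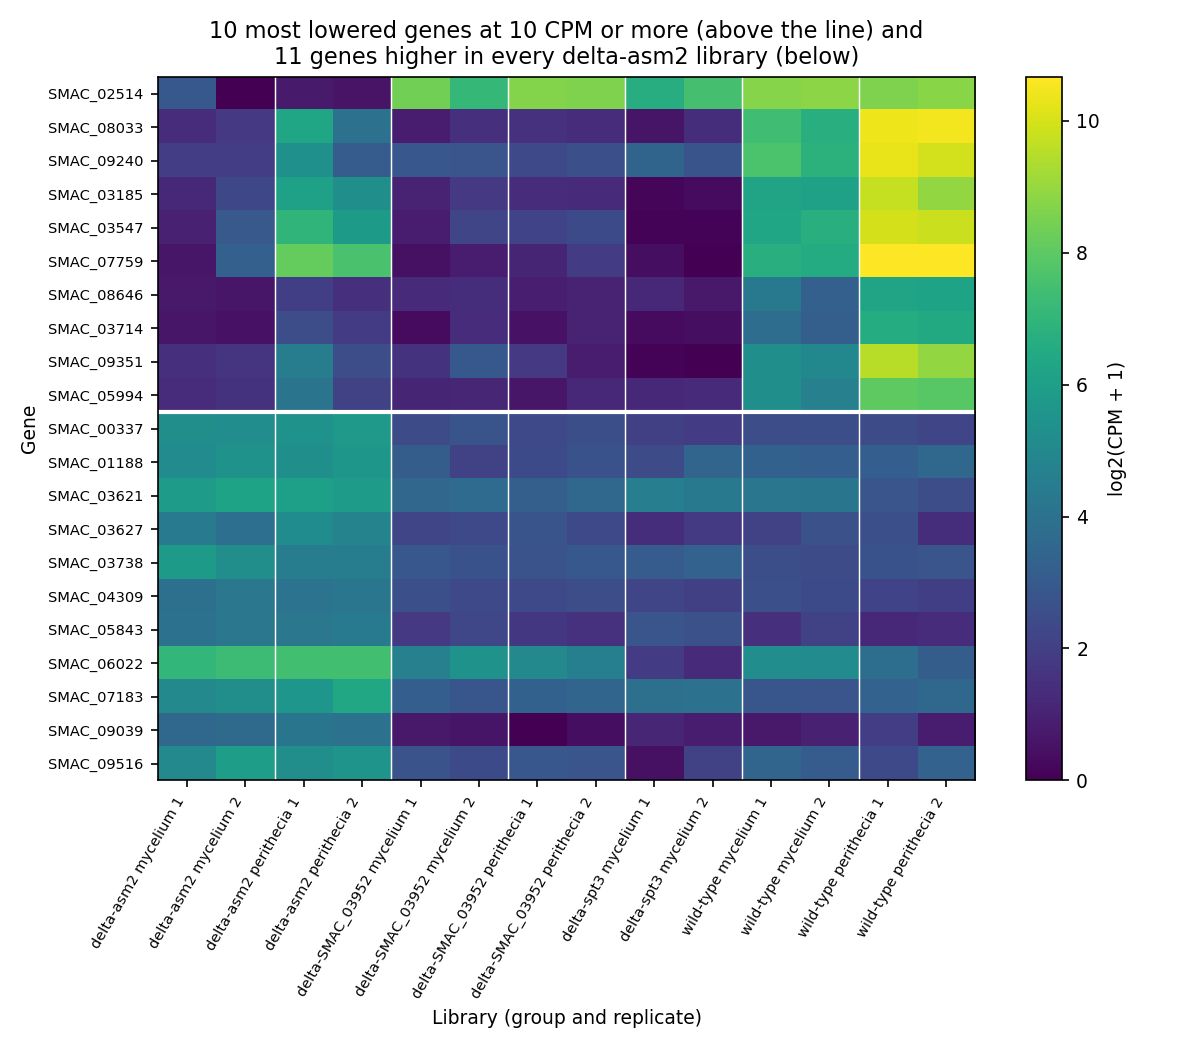
Levels as log2(CPM + 1), coloured by the bar at the right, of the 10 most lowered genes with a mean of at least 10 CPM in wild-type mycelium (above the white line) and of the 11 genes higher in every delta-asm2 library (below it), in all 14 libraries, named by strain, tissue and replicate. Of the 10 lowered genes, 9 are at 9.95 CPM or less in every mutant mycelium library and brightest in wild-type perithecia, while SMAC_02514 is dark in the 4 delta-asm2 libraries alone.

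Perithecia of the same strain gave a comparison whose groups share no library with those compared in mycelium. Both comparisons came from 1 model fitted to all 14 libraries, so they share each gene's estimate of spread. A gene with a low estimate is easier to call in both tissues. In perithecia, 1118 genes changed between delta-asm2 and the wild type (11.8%), 479 higher (5.04%) and 639 lower (6.73%) by the edgeR test. Of the 328 genes higher in delta-asm2 mycelium, 133 were also higher in delta-asm2 perithecia (40.5%), 7 were lower and 188 were not called. Of the 248 genes lower in delta-asm2 mycelium, 108 were also lower in perithecia (43.5%), 3 were higher and 137 were not called. The shared genes made up 27.8% of the genes higher in perithecia and 16.9% of those lower. The median log2 fold change in perithecia was 0.86 for the genes higher in mycelium and -0.91 for the genes lower in mycelium, against 0.01 over all genes tested. Across all 9499 genes the log2 fold changes of the tissues had a Pearson correlation of 0.377 and a Spearman correlation of 0.247, over genes that are not independent replicates.

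The median level of the 328 higher genes was 71.5 CPM in delta-asm2 mycelium, against 22.4 CPM in wild-type mycelium. In perithecia it was 42.2 CPM in delta-asm2 and 22.0 CPM in the wild type. The 248 lower genes had a median of 9.21 CPM in delta-asm2 mycelium, against 31.6 CPM in wild-type mycelium, and of 23.1 CPM in delta-asm2 perithecia, against 55.6 CPM in wild-type perithecia. Of the lower genes, 124 had their highest group mean in wild-type perithecia (50.0%) and 55 in wild-type mycelium. Of the higher genes, 158 had it in delta-asm2 mycelium (48.2%), 81 in delta-spt3 mycelium and 64 in delta-asm2 perithecia. Wild-type perithecia held the highest mean of 16.2% of all genes tested and delta-asm2 mycelium that of 7.74%, but these shares include the libraries that chose the genes.

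A test of the difference between the tissues called 171 genes (1.80%), 121 with a change that was more positive in mycelium (1.27%) and 50 with one more negative (0.526%). Among the 328 higher genes, 33 were called in this test, 31 of them with the more positive change in mycelium. Among the 248 lower genes, 30 were called, 23 of them with the more negative change in mycelium. This test reuses the mycelium libraries that chose the higher and lower genes. Their directions in it are partly set by that choice and are a description. The count of 171 rests on single libraries, as it was 7 without wild-type mycelium replicate 1, 28 without delta-asm2 mycelium replicate 1, 15 and 19 without either replicate of delta-asm2 perithecia, 93 without wild-type mycelium replicate 2, 50 and 96 without either replicate of wild-type perithecia, and 344 without delta-asm2 mycelium replicate 2.

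The genes that held up best in mycelium were followed separately. Under each of the 13 alternatives, among them the removal of each of the 4 mycelium libraries, 95 of the 576 genes were called, 55 higher and 40 lower. Of the 55 higher genes, 42 were also higher in delta-asm2 perithecia (76.4%), none was lower and 13 were not called. Their median log2 fold change was 2.22 in mycelium and 1.79 in perithecia. Of the 40 lower genes, 31 were also lower in delta-asm2 perithecia (77.5%), 8 were not called and SMAC_12741 was higher. Their median log2 fold change was -2.98 in mycelium and -2.67 in perithecia. Both shares were above those of all 328 and 248 genes, 40.5% and 43.5%, and this difference was not tested. The tests in both tissues share each gene's estimate of spread, which favours calls of low-spread genes in both.

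**Figure D4:**
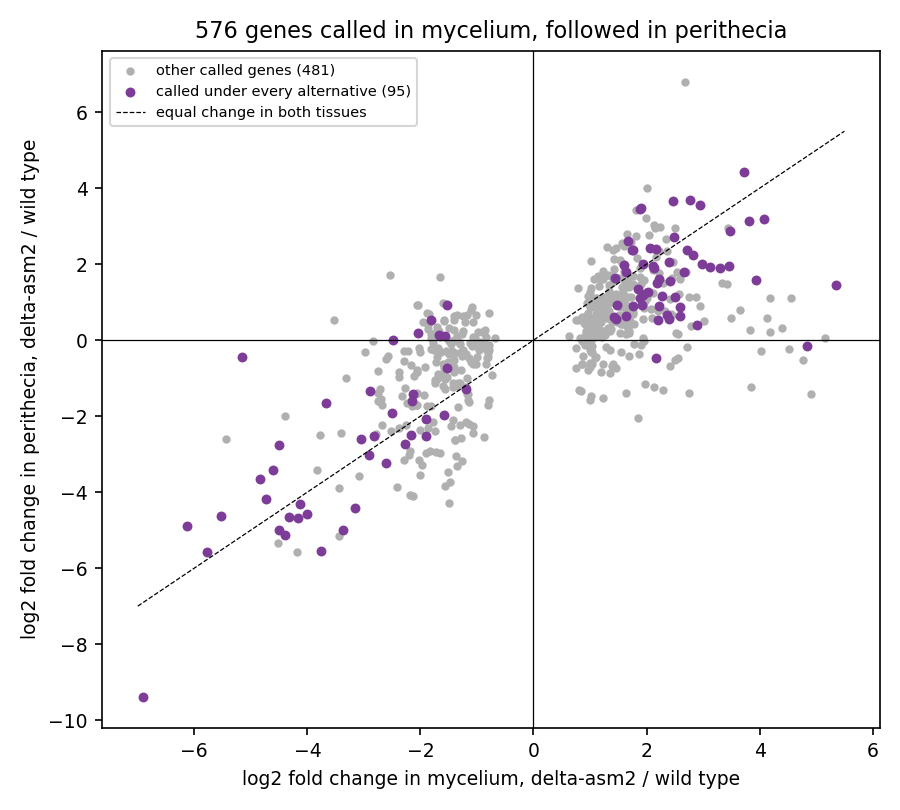
Log2 fold changes of delta-asm2 over the wild type in mycelium (x axis) and in perithecia (y axis) for the 576 genes called in mycelium. Purple points are the 95 genes called under every alternative and the dashed line marks equal change; 42 of the 55 higher and 31 of the 40 lower purple genes were called in the same direction in perithecia.

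Genes that move between tissues were looked up in delta-SMAC_03952, whose libraries are in neither group of the mycelium comparison. Those libraries did enter the model fitted to all 14 libraries, which set each gene's spread. In delta-SMAC_03952, 1556 genes were higher in perithecia than in mycelium (16.4%) and 1840 lower (19.4%) by the edgeR test. Of the 328 genes higher in delta-asm2 mycelium, 15 were higher in delta-SMAC_03952 perithecia (4.57%) and 107 lower (32.6%), and their median log2 fold change was -0.49. Of the 248 genes lower in delta-asm2 mycelium, 68 were higher in delta-SMAC_03952 perithecia (27.4%) and 38 lower (15.3%), and the median was 0.45. The median over all genes tested was 0.00. The genes raised in delta-asm2 mycelium thus counted more mycelium-high genes than the background share, and the lowered genes more perithecium-high ones. The lower tissue measure of the delta-asm2 mycelium libraries given above is not a separate observation. It uses the same tissue genes and the same mycelium libraries.

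A direct comparison with the other deletion strains avoids the shared wild-type libraries. Between delta-asm2 and delta-SMAC_03952 mycelium 329 genes differed (3.46%), 247 higher (2.60%) and 82 lower (0.863%) in delta-asm2 by the edgeR test. That count was 553 without delta-SMAC_03952 mycelium replicate 1, with 279 higher and 274 lower, 123 without its replicate 2, and 118 without delta-asm2 mycelium replicate 2. Between delta-asm2 and delta-spt3 mycelium 5082 genes differed (53.5%), 2606 higher (27.4%) and 2476 lower (26.1%) in delta-asm2. The split between higher and lower depended on the scaling, with 2766 higher and 2061 lower on unscaled library totals and 2242 higher and 3566 lower once a trend with transcript length was removed. The median over all genes shifted to 0.13 and -0.28 on the log2 scale under these settings.

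Some changed genes lay side by side in the gene order of the RefSeq annotation. Of 315 higher genes with a known order, 51 had a neighbour that was also higher (16.2%), while 6.22% of all tested genes had a higher gene beside them. Of 238 lower genes, 41 had a lower neighbour (17.2%), against 4.50% of all tested genes. There were 18 runs of 2 and 5 runs of 3 neighbouring higher genes, and 19 runs of 2 and 1 run of 3 neighbouring lower genes. The runs of 3 higher genes were SMAC_00401 to SMAC_00403, SMAC_03080 to SMAC_03082, SMAC_04105 to SMAC_04107, SMAC_07277 to SMAC_07279 and SMAC_07346 to SMAC_07348, and the run of 3 lower genes was SMAC_03577 to SMAC_03579. Overlapping neighbours can share reads where strand was not used in counting, which the sources used here do not give.

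The run from SMAC_07277 to SMAC_07279 was raised in both tissues. SMAC_07279 had 171 and 142 CPM in delta-asm2 mycelium, against 29.2 and 40.9 CPM in wild-type mycelium (log2 fold change 2.16, edgeR adjusted p = 9.19e-04). SMAC_07278 had 51.1 and 72.4 CPM in delta-asm2 mycelium, against 24.4 and 18.0 CPM in wild-type mycelium (log2 fold change 1.54). SMAC_07277 had 54.1 and 83.8 CPM in delta-asm2 mycelium, against 17.1 and 21.6 CPM in wild-type mycelium (log2 fold change 1.83). All 3 were also higher in delta-asm2 perithecia, and their replicates were within 2-fold of each other. They were higher than in delta-SMAC_03952 mycelium too, in a test that reuses the delta-asm2 mycelium libraries that chose them. Delta-spt3 mycelium had 109 and 69.7 CPM of SMAC_07279, 54.4 and 71.7 CPM of SMAC_07278 and 49.9 and 61.1 CPM of SMAC_07277. The direct comparison with delta-spt3 called SMAC_07279 higher in delta-asm2 (edgeR adjusted p = 0.0221). It did not call SMAC_07278 or SMAC_07277 (edgeR adjusted p = 0.932 and 0.382). In the run from SMAC_04105 to SMAC_04107 the change was larger and was not called in perithecia, as in SMAC_04107, which had 123 and 173 CPM in delta-asm2 mycelium, against 14.6 and 37.3 CPM in wild-type mycelium (log2 fold change 2.51, edgeR adjusted p = 0.00639). The lower run was small in size, with log2 fold changes between -1.78 and -0.80. Of the 18 genes in these runs, SMAC_07279 alone passed under every alternative.

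The number of genes called in mycelium depended on which libraries were used. It was 155 without delta-asm2 mycelium replicate 1, 686 without delta-asm2 mycelium replicate 2, 111 without wild-type mycelium replicate 1 and 333 without wild-type mycelium replicate 2. The lone library left in a group is then assumed to vary like the other groups. The share of higher genes that were also higher in perithecia moved with it, to 66.3% of 92 genes without delta-asm2 replicate 1 and 77.0% of 61 genes without wild-type replicate 1, and to 32.4% of 389 genes without delta-asm2 replicate 2. The share of lower genes also lower in perithecia was 61.9% of 63, 78.0% of 50 and 30.3% of 297 genes under the same settings. In the authors' deposited table, 894 genes have an adjusted p under 0.05 for the same comparison, 484 higher and 410 lower. Of the 576 genes called here, 571 are among them in the same direction. For the named genes these p-values are given to 2 decimals, so one printed as 0.05 was left out. The counts tested here are the authors' own, so the overlap is not an independent check.

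**Figure D5:**
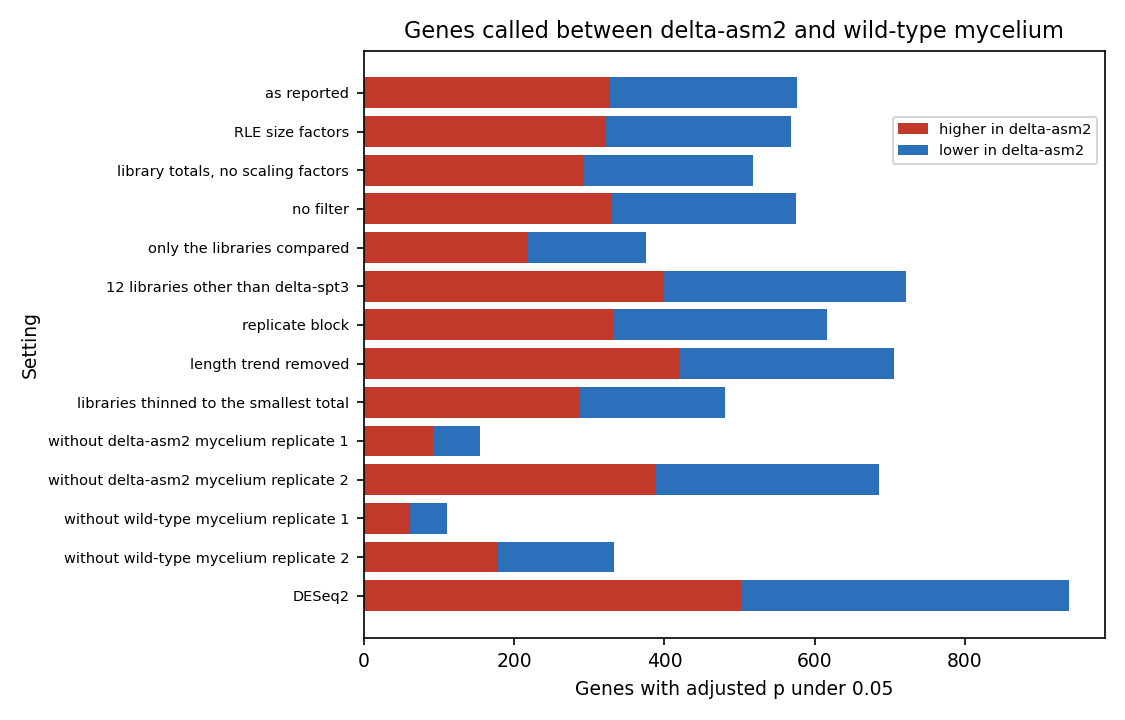
Number of genes with an adjusted p under 0.05 between delta-asm2 and wild-type mycelium (x axis) for each setting (y axis), with genes higher in delta-asm2 in red and lower genes in blue, stacked from 0. The count is 576 as reported, 111 without wild-type mycelium replicate 1 and 939 with DESeq2.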

How the data were processed

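Raw read counts per gene model were deposited by the authors in 1 table for 14 libraries, per the file headers. The sources used here name no aligner, counter, genome build or strand setting, so counts of overlapping genes or close copies are uncertain. The labels' extraction text also names microdissected RNA; samples were taken as labelled. Per the submitters' processing notes, the authors used DESeq2. The authors' deposited table also holds a mean normalised signal, log2 fold changes and adjusted p-values of their comparisons; the last 2 were read for comparison and entered no test.

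The table has 10014 rows, 145 of them second transcripts with 0 counts, and 9869 gene models. Genes were filtered with filterByExpr over 7 groups, which left 9499; the other 370 held 0.00468% of the counts. One edgeR 4.0.16 quasi-likelihood model (R 4.3.3, limma 3.58.1) with a mean per group, TMM factors and no block was fitted to all 14 libraries (common biological coefficient of variation 0.237, degrees of freedom 7 residual and 5.5 prior). P-values were Benjamini-Hochberg adjusted over all genes and called under 0.05; 2021 genes had an unadjusted p under 0.05 in delta-asm2 against wild-type mycelium. The code was tested on simulated counts. CPM values use TMM-scaled totals, with n = 2 libraries per group and both values printed; standard errors were derived from each fold change and F statistic. Counting error alone is small at these depths beside the replicate spread.

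Named genes were the 10 largest changes and 5 most abundant genes in each direction, among called genes that reached 10 CPM in the higher group and did not overlap between groups. Members of runs of 3 or more called neighbours were named whatever their level, as were SMAC_02514, SMAC_08033, SMAC_01390, SMAC_04544 and SMAC_03952, the last of which was not called. Genes higher in every delta-asm2 library, those crossing 1 and 10 CPM and the neighbours of SMAC_02514 were added after values were seen. The comparison, rules and lists were chosen with earlier results of these data known. A match to a locus tag was found for 9531 gene models in the RefSeq annotation ASM3387043v1, which gave 0 other symbols and was used only for gene order. Gene lists by product could not be formed, and no sequences are printed. Alternatives were other scaling (DESeq2 size factors, library totals), no filter, fewer libraries, a replicate block, removal of a length trend, thinning, DESeq2 1.42.0 and leaving out each replicate.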

Additional observations from a re-analysis of the deposited data

Results flagged for a closer look

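Each result here was singled out because the effect of the asm2 deletion differed between mycelium and perithecia in a test of the difference itself (edgeR, log2 difference of mycelium minus perithecia). Among the raised genes the difference was 3.91 for SMAC_01390 (adjusted p = 0.0173), 6.30 for SMAC_04106 (0.0159), 5.0 for SMAC_05928 (0.0367) and 5.29 for SMAC_08989 (0.0367), none of which was called in perithecia. Of the abundant lowered genes, SMAC_00158 had a difference of -2.23 (adjusted p = 0.0257). The test reuses the mycelium libraries by which these genes were named, which favours a larger change in mycelium.

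Members of neighbouring runs made up the rest. SMAC_07346 had a difference of 2.19 (adjusted p = 0.0179) and SMAC_07347 one of 2.75 (0.00528). SMAC_07347 had 26.9 and 25.4 CPM in delta-asm2 mycelium, against 10.4 and 11.9 CPM in wild-type mycelium, and 7.81 and 8.29 CPM in delta-asm2 perithecia, against 28.1 and 18.2 CPM in wild-type perithecia. It was thus called higher in mycelium (log2 fold change 1.23, edgeR adjusted p = 0.0200) and lower in perithecia (log2 fold change -1.52, edgeR adjusted p = 0.00356). SMAC_03080 had a difference of 3.60 (adjusted p = 0.0272) and SMAC_03579 one of -1.84 (0.0367).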

How the results depend on the processing

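The 576 genes became 375 (219 higher, 156 lower) with the 4 compared libraries alone, 939 (502 and 437) with DESeq2, and 111 to 686 when 1 replicate was left out. With a replicate block the count was 616. Numbers do not pair these samples. Within each group, the log2(CPM + 1) of replicate 2 was subtracted from that of replicate 1 for each gene. Across genes, these differences correlated between -0.372 and 0.447 over 21 pairs of groups (-0.261 for delta-asm2 and wild-type mycelium). A crossed pairing, chosen after the data were seen, gave 916. Other scaling, no filter, thinning, removal of a length trend and leaving out delta-spt3 gave 480 to 721.

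In perithecia, leaving out 1 replicate gave 371 to 704 genes. The 171 genes that differed between tissues became 423 (229 positive, 194 negative) with the compared libraries alone, 344 with the length trend removed, 680 (381 and 299) with DESeq2, 231 with the replicate block, and 7 to 344 without 1 replicate. Against delta-SMAC_03952 mycelium, 329 genes became 36 with the compared libraries alone (36 higher, 0 lower), 679 with DESeq2 and 118 to 553 without 1 replicate. Against delta-spt3 mycelium the compared libraries alone gave 2127 higher and 1586 lower genes. For the named genes, 734 of 854 values kept the call or its absence, 116 lost the call and 4 gained one. Among genes called as reported, 0 values reversed direction. Sign changes were seen in SMAC_09685, SMAC_09686 and SMAC_03952, which were not called. Their lowest log2 fold changes were -0.61, -0.96 and -0.04. With 2 replicates a group, the smaller changes cannot be resolved, and the causes of these shifts were not tested.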

Other observations

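Some genes changed by at least 8-fold, reached 10 CPM and still did not pass the test. There were 7 of them, chosen after their values were seen, 6 higher and 1 lower in delta-asm2 mycelium. SMAC_00533 had 6051 and 81.5 CPM in delta-asm2 mycelium, against 56.8 and 54.0 CPM in wild-type mycelium (log2 fold change 5.79 ± 1.84, edgeR adjusted p = 0.0900). SMAC_00532 had 724 and 19.4 CPM in delta-asm2 mycelium, against 39.5 and 28.6 CPM in wild-type mycelium (edgeR adjusted p = 0.112). In both, replicate 1 of delta-asm2 mycelium alone was high, and delta-asm2 perithecia stayed at 201 CPM or less of SMAC_00533.

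SMAC_09685 and SMAC_09686 had 37.1 and 43.9 CPM in replicate 1 of delta-asm2 mycelium and 0.330 CPM each in replicate 2, against at most 0.991 CPM in wild-type mycelium. SMAC_01440 had 359 and 131 CPM in delta-asm2 mycelium, against 3.60 and 28.1 CPM in wild-type mycelium. SMAC_00529 had 84.2 and 47.6 CPM in delta-asm2 mycelium, against 1.86 and 12.8 CPM in wild-type mycelium. The lower gene, SMAC_00508, had 74.5 and 1226 CPM in delta-asm2 mycelium, against 6379 and 4905 CPM in wild-type mycelium (log2 fold change -3.12, edgeR adjusted p = 0.0873).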
